A study of Mus musculus with 7 samples.

Results

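The receptor genes of the interleukin-1 (IL-1) and interleukin-17 (IL-17) pathways were examined in sorted mouse Paneth cells (PCs). PCs are the secretory cells at the crypt base of the small intestine, which release lysozyme and antimicrobial peptides. The members are 10 genes chosen by name (Il1r1, Il1rap, Il1rn, Irak1, Irak2, Il17ra, Il17rc, Il17re, Il17c and Traf3ip2) among the 55414 Ensembl identifiers of the count table. All libraries came from C57BL/6J mice, and the groups were 3 mice given PBS and 4 mice given tumour necrosis factor (TNF), a pro-inflammatory cytokine. PCs were sorted 15 h after the injection, and the description of the series assigns each library to a separate animal. The sources used here give no dose, sex, age or sort gate.

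IL-1 signals through a complex of IL1R1, which binds the ligand, and the accessory protein IL1RAP. The joined Toll/IL-1 receptor domains recruit MyD88 and the kinases of the IRAK family, which pass the signal on to TRAF6 and NF-kB. IL1RN is the antagonist that occupies IL1R1 without recruiting IL1RAP. The IL-17 receptors share the chain IL17RA, which pairs with IL17RC to bind IL-17A and IL-17F and with IL17RE to bind IL-17C. IL-17C is made by epithelial cells themselves. The adaptor Act1, encoded by Traf3ip2, binds the receptor tails. In the intestinal epithelium both pathways are known for the induction of chemokines and antimicrobial proteins.

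The start regions of Il1rn, Il17c and Il1r1, whose values changed most in the fit over all libraries, are shown first, so that the letters at these starts can be read beside the values. The sequences are RefSeq windows of GRCm38.p6, from 250 bases before to 50 bases after an annotated start, and 8 of the 10 members had at least 1 window. Il17ra and Traf3ip2 had none. Capitals mark matches to GGGNNNNNCC, a loose form of the NF-kB motif, on either strand (GGNNNNNCCC as read here for the minus strand), with overlapping matches allowed. The first Il1rn window lies at chr2:24336610-24336909, the second at chr2:24345121-24345420, the Il17c window at chr8:122421770-122422069 and the Il1r1 window at chr1:40224830-40225129, all on the plus strand.
Il1rn, upstream start: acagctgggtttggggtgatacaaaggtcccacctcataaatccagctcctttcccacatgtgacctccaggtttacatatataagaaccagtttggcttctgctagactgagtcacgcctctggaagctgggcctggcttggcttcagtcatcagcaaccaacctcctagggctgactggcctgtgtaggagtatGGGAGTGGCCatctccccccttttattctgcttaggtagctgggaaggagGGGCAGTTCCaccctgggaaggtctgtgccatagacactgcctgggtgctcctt
Il1rn, downstream start: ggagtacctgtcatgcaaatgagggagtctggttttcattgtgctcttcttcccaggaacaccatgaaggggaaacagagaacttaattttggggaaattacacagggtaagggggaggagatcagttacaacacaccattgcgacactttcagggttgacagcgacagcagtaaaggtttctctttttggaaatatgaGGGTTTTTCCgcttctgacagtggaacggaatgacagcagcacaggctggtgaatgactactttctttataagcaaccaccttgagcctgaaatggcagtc
Il17c: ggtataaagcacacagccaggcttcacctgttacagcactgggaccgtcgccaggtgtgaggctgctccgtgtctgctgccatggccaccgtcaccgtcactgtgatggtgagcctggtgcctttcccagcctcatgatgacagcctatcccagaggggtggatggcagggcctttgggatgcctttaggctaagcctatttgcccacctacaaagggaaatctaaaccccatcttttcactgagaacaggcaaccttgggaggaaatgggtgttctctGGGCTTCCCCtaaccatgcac
Il1r1, upstream start: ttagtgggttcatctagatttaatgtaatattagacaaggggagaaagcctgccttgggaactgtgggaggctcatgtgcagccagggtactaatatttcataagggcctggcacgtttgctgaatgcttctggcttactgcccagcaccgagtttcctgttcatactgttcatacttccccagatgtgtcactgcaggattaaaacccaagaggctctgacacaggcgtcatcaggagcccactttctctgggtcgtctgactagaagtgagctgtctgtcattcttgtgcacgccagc
The upstream Il1rn window held 2 matches, the downstream window and the Il17c window 1 each, and the upstream Il1r1 window none. The other Il1r1 window, at chr1:40266336-40266635, held 1 match. The third Il1rn window overlaps the downstream one, and its 1 match is that same site. Of all 32851 windows in the RefSeq table, 50.8% held at least 1 match, so a match is common and is given as a description only. The counts are per gene and do not tell the starts of Il1rn or Il1r1 apart.

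Levels are given as CPM, the counts of a gene scaled to a library of 1000000 counts after TMM normalisation (trimmed mean of M-values). Means are followed by the SD over the 3 PBS or the 4 TNF libraries. Differences are log2 fold changes (log2FC) of TNF against PBS from edgeR's quasi-likelihood test. Their standard error (SE) is nominal, computed as the absolute log2FC divided by the square root of the F statistic of that test. The p-values were adjusted by Benjamini-Hochberg over all 14329 tested genes. A gene with an adjusted p under 0.05 is called a differentially expressed gene (DEG). Among all tested genes, 59.6% were DEGs, with 29.5% higher and 30.1% lower after TNF. All 10 members passed the filter on low counts, and 7 of them were DEGs, of which 6 were higher and 1 was lower. In 7 members the CPM ranges of the groups did not overlap, where the share over all tested genes was 60.7%. The share of DEGs among the members, 70%, is read against the background of 59.6%. Il17c passed the filter only through TNF libraries, and Il1r1 and Il17re through the 3 PBS libraries, with 1 TNF library over the limit, so a difference was built into their selection and these counts support nothing further. In bulk samples, fewer cells of a type and less RNA per cell cannot be told apart.

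**Figure D1:**
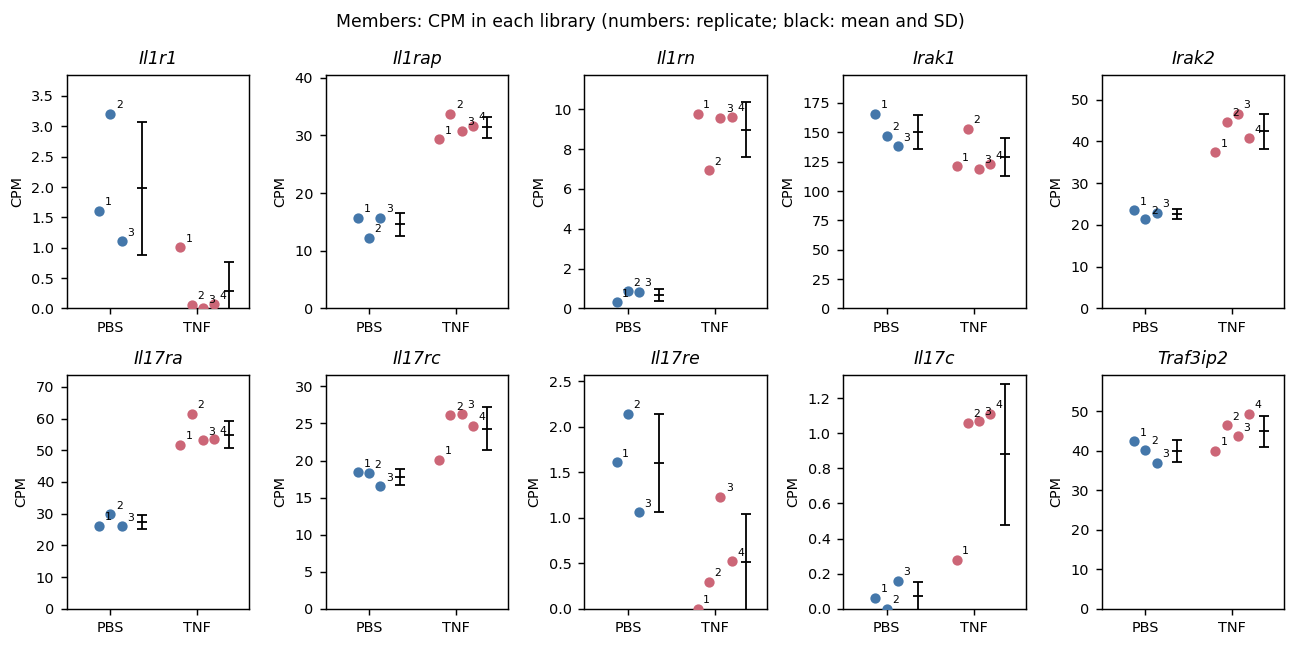
CPM (vertical axes, each from 0) of the 10 members in the 3 PBS and 4 TNF libraries, with replicate numbers beside the points and mean and SD in black. The groups are apart for 7 genes and overlap for Irak1, Il17re and Traf3ip2.

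The antagonist gene Il1rn (ENSMUSG00000026981, chromosome 2, 24226865 to 24241506 in GRCm39, as for all gene coordinates here, plus strand) rose in every alternative run, with log2FCs from 3.38 to 3.91. It had 0.309, 0.865 and 0.848 CPM in the PBS libraries and 9.79, 6.95, 9.58 and 9.62 CPM in the TNF libraries. All TNF libraries lay far above all PBS libraries, and TNF replicate 2 was the lowest of the TNF group. The mean rose from 0.674 ± 0.316 CPM to 8.99 ± 1.36 CPM, a 13-fold change with a log2FC of 3.70 ± 0.34 (SE) and an edgeR adjusted p of 6.97e-07. Il1rn thus went from 38 counts over the PBS libraries to 619 over the TNF libraries.

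The ligand gene Il17c (ENSMUSG00000046108, chromosome 8, 123148759 to 123150844, plus strand) was close to the limit of detection. It had 1, 0 and 3 counts in the PBS libraries and 5, 18, 20 and 17 counts in the TNF libraries, which is 0.0736 ± 0.0802 CPM and 0.881 ± 0.401 CPM. The groups did not overlap, but TNF replicate 1 lay much closer to the PBS libraries than the others did. The log2FC was 3.46 ± 0.91 (edgeR, adjusted p = 0.0048). Leaving out PBS replicate 3 gave 4.64, and Il17c did not pass the filter without TNF replicate 2, 3 or 4.

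The annotated Il17c gene shares 423 bases with Cyba, which lies on the opposite strand and encodes the p22phox subunit of NADPH oxidases. Cyba rose from 16.9 ± 1.97 CPM to 241 ± 29.9 CPM, with a log2FC of 3.83 ± 0.14 (edgeR, adjusted p = 2.14e-10), so its mean was 274 times that of Il17c after TNF. The sources used here do not state whether counting used strand, and without strand the reads of the shared bases cannot be assigned to either gene. The part of Cyba reads in the Il17c counts was not tested.

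Of the IL-1 receptor chains, the accessory chain gene rose and the gene of the ligand-binding chain fell. Il1rap (ENSMUSG00000022514, chromosome 16, 26400350 to 26548880, plus strand) had 15.7, 12.3 and 15.7 CPM after PBS and 29.3, 33.8, 30.8 and 31.7 CPM after TNF. The TNF libraries were about as close to each other as the PBS libraries were, and every TNF value exceeded every PBS value. The change from 14.6 ± 1.97 CPM to 31.4 ± 1.90 CPM gave a log2FC of 1.11 ± 0.13 (edgeR, adjusted p = 8.13e-06). The gene also encodes a soluble form without the membrane anchor, and counts per gene do not separate the forms.

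Il1r1 (ENSMUSG00000026072, chromosome 1, 40264174 to 40356417, plus strand) was low in every library. It had 26, 63 and 21 counts after PBS (1.61, 3.21 and 1.11 CPM) and 18, 1, 0 and 1 counts after TNF (1.01, 0.0589, 0 and 0.0654 CPM). TNF replicate 1 was nearly at the level of PBS replicate 3, while the other TNF libraries were at or close to 0. The log2FC was -2.76 ± 0.92 (edgeR, adjusted p = 0.021), from 1.98 ± 1.09 CPM to 0.283 ± 0.484 CPM. The call depended on single libraries. It was lost without PBS replicate 2 (log2FC -2.22, adjusted p = 0.105), TNF replicate 2 (-2.42, 0.0584) or TNF replicate 4 (-2.47, 0.0504), and without TNF replicate 1 the fall was larger (-5.41, 6.51e-05).

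The shared IL-17 receptor chain gene Il17ra (ENSMUSG00000002897, chromosome 6, 120440104 to 120464520, plus strand) doubled. Its values were 26.2, 29.8 and 26 CPM after PBS and 51.8, 61.5, 53.1 and 53.5 CPM after TNF. The groups were clearly apart, and the mean rose from 27.3 ± 2.11 CPM to 55 ± 4.41 CPM, with a log2FC of 1.01 ± 0.11 (edgeR, adjusted p = 3.96e-06).

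Il17rc and Il17re, which encode the partner chains, are neighbours on the plus strand of chromosome 6, and only Il17rc passed the test. Il17rc (ENSMUSG00000030281, 113448388 to 113460103) had 18.4, 18.3 and 16.5 CPM after PBS and 20.1, 26.1, 26.3 and 24.7 CPM after TNF. The ranges did not overlap, although TNF replicate 1 was only slightly above the PBS libraries. The log2FC was 0.45 ± 0.14 (edgeR, adjusted p = 0.0105). When libraries were scaled by their totals only, the median over all tested genes moved to -0.16, and Il17rc was then not a DEG (0.29, adjusted p = 0.142). It also lost its call with the replicate number as a block (0.44, adjusted p = 0.0548). Its end is overlapped on the opposite strand by the lncRNA gene Gm57002.

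Il17re (ENSMUSG00000043088, chromosome 6, 113435445 to 113447719) had 26, 42 and 20 counts after PBS (1.61, 2.14 and 1.06 CPM) and 0, 5, 23 and 8 counts after TNF (0, 0.295, 1.23 and 0.524 CPM). The ranges overlapped, since TNF replicate 3 exceeded PBS replicate 3. The log2FC of -1.62 ± 0.77 (edgeR, adjusted p = 0.0868) did not pass the threshold. It passed with no filter on low counts (-1.62, 0.0308), with limma-voom (-2.49, 0.0235) and without TNF replicate 3 (-2.57, 0.0183).

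Below the receptors, Irak2 was a DEG and Irak1 was not. Irak1 (ENSMUSG00000031392, chromosome X, 73056964 to 73067554, minus strand), whose product is a kinase recruited through MyD88 and IRAK4, had 166, 147 and 138 CPM after PBS and 121, 153, 119 and 123 CPM after TNF. Of the TNF libraries, only replicate 2 lay within the PBS range. The log2FC was -0.22 ± 0.12 (edgeR, adjusted p = 0.114). The gene was a DEG without TNF replicate 2 (-0.31, adjusted p = 0.0291) and with scaling by totals only (-0.38, 0.0198).

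Irak2 (ENSMUSG00000060477, chromosome 6, 113615386 to 113672470, plus strand), whose product sustains the later response, had 23.6, 21.4 and 22.9 CPM after PBS and 37.4, 44.7, 46.7 and 40.8 CPM after TNF. All TNF libraries were well above the PBS range. The mean rose from 22.6 ± 1.14 CPM to 42.4 ± 4.13 CPM, with a log2FC of 0.91 ± 0.12 (edgeR, adjusted p = 1.69e-05).

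The Act1 gene Traf3ip2 (ENSMUSG00000019842, chromosome 10, 39488930 to 39534689, plus strand) had 42.4, 40.2 and 36.9 CPM after PBS and 40, 46.4, 43.7 and 49.3 CPM after TNF. The groups overlapped, and the log2 fold change was 0.17 ± 0.11 (edgeR, adjusted p = 0.201). It was not a DEG in any of the 15 alternatives run, with log2FCs from 0.01 to 0.22. The annotation places the antisense transcript E130307A14Rik across it, which had 180 counts over all libraries.

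**Figure D2:**
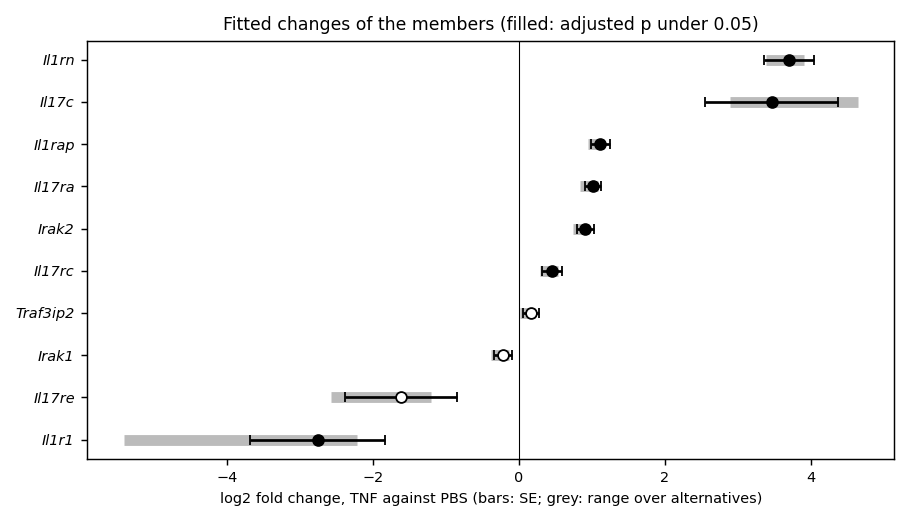
Log2 fold changes of TNF against PBS (horizontal axis) for the 10 members, with SE bars, filled points for DEGs and grey bands for the range over the alternative settings. Il1rn and Il17c lie farthest to the right at 3.70 and 3.46, and the grey band is widest for Il1r1, from -5.41 to -2.22.

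To compare levels between genes, CPM were divided by the merged exon length in kilobases. Merged exons overstate the length of a single transcript. After PBS, Irak1 was highest with 27 ± 2.53 CPM per kb, apart from all other members. Il17rc (3.91 ± 0.226), Traf3ip2 (3.91 ± 0.271) and Irak2 (3.75 ± 0.188) followed with overlapping ranges. Il17ra came next with 3.12 ± 0.241 CPM per kb and Il1rap with 0.955 ± 0.129 CPM per kb. Il1r1 (0.290 ± 0.161) and Il17re (0.273 ± 0.0918) overlapped with each other, as did Il1rn (0.122 ± 0.0572) and Il17c (0.0621 ± 0.0677) at the low end.

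After TNF the per-length order of the upper members had shifted. Irak1 remained first with 23.2 ± 2.93 CPM per kb, followed by Irak2 (7.04 ± 0.685) and Il17ra (6.27 ± 0.503), whose ranges overlapped. Il17rc (5.35 ± 0.637) and Traf3ip2 (4.40 ± 0.389) also overlapped, and Il1rap had 2.06 ± 0.125 CPM per kb. Il1rn rose above Il17re and Il1r1 to 1.62 ± 0.245 CPM per kb, and Il17c reached 0.743 ± 0.339 CPM per kb. The lowest levels were those of Il17re (0.0873 ± 0.0895) and Il1r1 (0.0415 ± 0.071), which overlapped.

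Count ratios within a library do not depend on library scaling and were compared for 4 gene pairs by an exact permutation test, two-sided on the absolute difference of mean log2 ratios, with 0.5 added to each count. For 35 arrangements of the libraries the smallest possible p is 0.0286. The groups did not overlap for any of the 4 ratios, but none passed the threshold after Benjamini-Hochberg adjustment over the 4 ratios.

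The ratio of Irak2 to Irak1 counts was 0.142, 0.145 and 0.165 after PBS and 0.310, 0.291, 0.392 and 0.334 after TNF. Each TNF library thus had a higher share of Irak2 than any PBS library, with a log2 difference of 1.13 (exact permutation p = 0.0286, adjusted p = 0.0571). The ratio of the partner chain Il17rc to the shared chain Il17ra was 0.701, 0.614 and 0.636 after PBS and 0.388, 0.425, 0.495 and 0.461 after TNF. It was lower in all TNF libraries, with a log2 difference of -0.56 (exact permutation p = 0.0286, adjusted p = 0.0571).

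The ratio of Il1rap to Il1r1 was 9.6, 3.82 and 13.8 after PBS and 28.3, 383, 1150 and 324 after TNF, a log2 difference of 4.98 (exact permutation p = 0.0571, adjusted p = 0.0571). The TNF libraries ranged widely, with 18, 1, 0 and 1 Il1r1 counts, and the log2 difference was 6.03 without TNF replicate 1 and 4.25 without TNF replicate 3. The ratio of Il17re to Il17ra was 0.0624, 0.0726 and 0.0417 after PBS and 0.00054, 0.00527, 0.0237 and 0.0104 after TNF, where the lowest value comes from the library with 0 Il17re counts. Its log2 difference was -3.48 (exact permutation p = 0.0571, adjusted p = 0.0571), or -2.40 without TNF replicate 1 and -4.21 without TNF replicate 3.

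**Figure D3:**
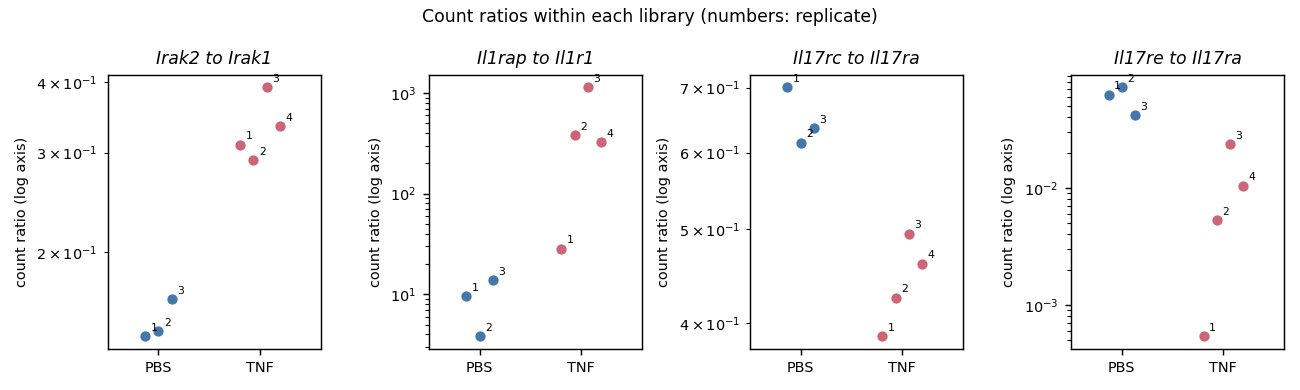
Count ratios (log axes) of Irak2 to Irak1, Il1rap to Il1r1, Il17rc to Il17ra and Il17re to Il17ra in each library, with replicate numbers beside the points. In all 4 panels the PBS and TNF points are apart, and the TNF points spread most where counts are few.

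The other genes of the pathways were taken from 5 lists of 66 genes in all, of which 50 were tested. After TNF, 38 of these were higher and 6 lower, against the background shares of 29.5% and 30.1%, and their median log2 fold change was 1.34, where that of all tested genes was 0.0017. The lists were chosen with earlier results of these data known, so their direction is not independent evidence. In addition, 7 of the 50 genes passed the filter with no PBS library over it and Il25 with no TNF library, so that these had to differ.

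Ligand genes of the IL-1 and IL-17A receptors had few or no counts. Il1a, Il1b and Il17a had 0 counts in every library, which allows a level of up to 0.0243 CPM over all libraries, and Il17f had 2 counts, both in TNF replicate 4. Of the 15 IL-1 family ligands and other receptors, 5 had 0 counts throughout and only 3 were tested. Il33, which encodes an alarmin, had 3 counts after PBS, all in PBS replicate 2, and 126 after TNF, 33.4 times as many CPM (95% exact binomial interval 11.2 to 164, counting error only; edgeR adjusted p = 0.000215). Leaving out PBS replicate 2 gave at least 21.4-fold, and leaving out PBS replicate 3 gave 21.9 (7.32 to 107). Il33 passed the filter with no PBS library over it, so its direction was built into the selection.

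Il18bp, which encodes a decoy that binds IL-18, rose from 3.06 ± 0.235 CPM to 21.3 ± 1.47 CPM, with a log2FC of 2.80 ± 0.17 (edgeR, adjusted p = 1.24e-08). Sigirr, which encodes an inhibitory receptor of the IL-1 family, fell from 19.6 ± 1.54 CPM to 9 ± 3.20 CPM, with a log2FC of -1.12 ± 0.24 (edgeR, adjusted p = 0.0011). The decoy receptor gene Il1r2 had 0 counts in every library.

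Of the 15 genes for MyD88 signalling proteins, 9 were higher, 3 lower and 3 not called, with a median log2FC of 0.58, where all tested genes had 29.5% higher, 30.1% lower and a median of 0.0017. Myd88, the adaptor gene, rose from 19.7 ± 1.37 CPM to 143 ± 12 CPM, with a log2FC of 2.86 ± 0.12 (edgeR, adjusted p = 3.4e-10). Traf6, which encodes the ubiquitin ligase downstream of the IRAK kinases, rose by 1.54 ± 0.11 (adjusted p = 7.11e-08). Peli2, which encodes a Pellino ubiquitin ligase, fell from 52.8 ± 3.74 CPM to 13.2 ± 1.09 CPM, with a log2FC of -2.0 ± 0.12 (adjusted p = 9.74e-09). Irak3, which encodes the inhibitory family member IRAK-M, and Tollip, an inhibitor gene of the same cascade, were also DEGs, with log2FCs of 0.87 ± 0.15 and 1.43 ± 0.10 (adjusted p = 0.00018 and 6.37e-08). Irak4 and Tab1 were the other genes called lower, with -0.42 ± 0.17 and -1.35 ± 0.15 (adjusted p = 0.0432 and 4.18e-06). The groups overlapped for Irak4, and its call was lost with the replicate number as a block (-0.35, adjusted p = 0.182), with scaling by totals only (-0.59, 0.0543) and on leaving out any 1 library other than PBS replicate 1 and TNF replicate 1 (-0.46 to -0.35, adjusted p from 0.0559 to 0.139). Irak3, Tollip, Irak4 and Tab1 were named after their values were seen.

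Of the 13 genes for IL-17 signalling proteins, 11 were higher and 2 not called, with a median log2FC of 0.85, to be read against the same shares and median over all tested genes. Cebpd, a transcription factor gene, rose from 4.14 ± 1.22 CPM to 113 ± 18.4 CPM, with a log2FC of 4.79 ± 0.20 (edgeR, adjusted p = 9.02e-10). The genes of proteins that act on mRNA, Arid5a and Zc3h12a (Regnase-1), had log2FCs of 3.11 ± 0.16 and 2.65 ± 0.18 (adjusted p = 2.34e-09 and 6.81e-08). ARID5A is known to stabilise and Regnase-1 to degrade inflammatory transcripts.

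Over all tested genes, 29.5% were higher and the median log2FC was 0.0017. All 15 tested genes of the 16 IL-17-responsive epithelial genes were higher, with a median log2FC of 5.92. Of these, 6 (S100a9, Cxcl1, Cxcl2, Cxcl5, Steap4 and Tnip3) passed the filter with no PBS library over it, so their direction was built into the selection and the count and median support nothing further. The neutrophil chemokine genes Cxcl2 and Cxcl1 and the NF-kB inhibitor gene Tnip3 had 0 or 1 counts after PBS, so their fitted changes give no order. Cxcl1 had 0 counts after PBS and 31, 10.5, 12.4 and 8.70 CPM after TNF, a bound of at least 290-fold higher (edgeR adjusted p = 0.000222). This bound was 186 on leaving out PBS replicate 2, 190 on leaving out PBS replicate 3 and 194 on leaving out TNF replicate 1. Cxcl2, with 0 counts after PBS too, reached a bound of at least 1650-fold (edgeR, adjusted p = 4.2e-08), which was 1060 when PBS replicate 2 was left out and 1080 when PBS replicate 3 was. Tnip3 had 1 count after PBS, in replicate 2, and 3775 after TNF, and its ratio was 3000 (95% interval from 538 to 119000, edgeR adjusted p = 1.09e-10). Leaving that library out gave at least 641-fold, and leaving out PBS replicate 3 gave 1970 (353 to 77700). Lcn2, which encodes the siderophore-binding lipocalin-2, had a log2FC of 9.87 ± 0.30 (adjusted p = 1.03e-10). Duox2 and its maturation factor gene Duoxa2, needed for epithelial hydrogen peroxide release, had 4.16 ± 0.16 and 8.09 ± 0.32 (adjusted p = 2.87e-10 and 4.45e-09). Pigr, the polymeric immunoglobulin receptor gene, had the smallest change of the list with 0.84 ± 0.19 (adjusted p = 0.00154). S100a8 was the gene not tested, with 0 counts after PBS and 32 after TNF. Many genes of this list are known targets of TNF as well as of IL-17.

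**Figure D4:**
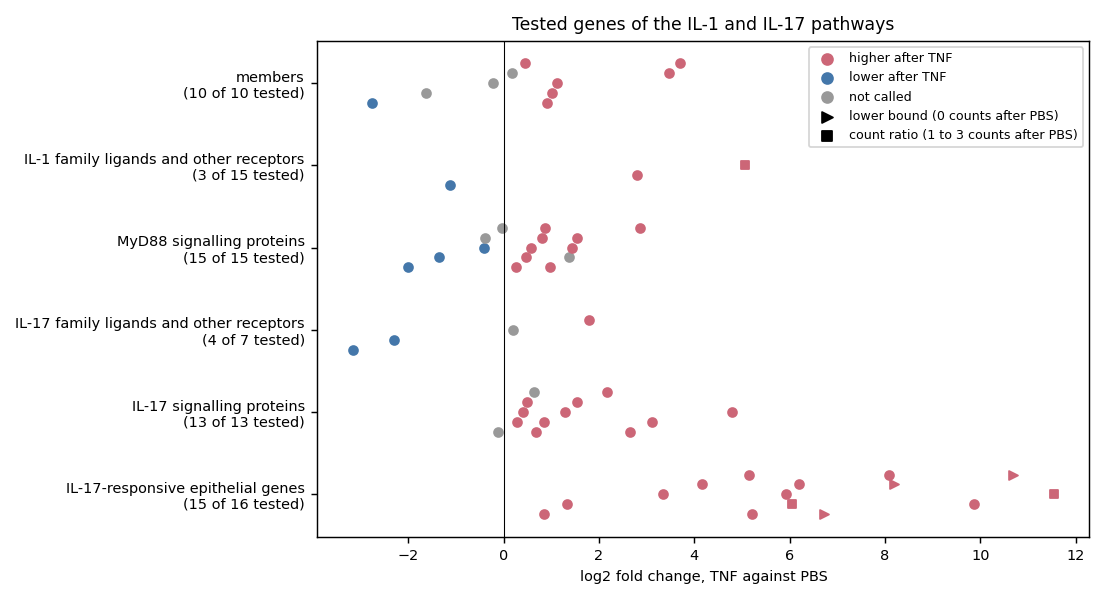
Log2 fold changes of TNF against PBS (horizontal axis) for the tested genes of the members and of the 5 pathway lists, coloured by call, with triangles for lower bounds and squares for count ratios. The IL-17-responsive genes lie all to the right of 0, while the IL-17 family ligands and receptors hold 2 genes to the left that were called lower.

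Of the 7 IL-17 family ligands and other receptors, 4 were tested, of which 1 was higher, 2 were lower and 1 was not called, beside 29.5% higher and 30.1% lower over all tested genes. Il17d was higher, from 0.487 ± 0.102 CPM to 1.72 ± 0.669 CPM, with a log2FC of 1.79 ± 0.54 (edgeR, adjusted p = 0.0112), a call lost with the replicate number as a block (1.62, adjusted p = 0.0745). Il17rb, the receptor chain for IL-25, had 18.4, 22.7 and 13 CPM after PBS and 4.48, 4.01, 4.18 and 1.90 CPM after TNF. Every TNF value was below every PBS value (log2FC -2.30 ± 0.27, edgeR adjusted p = 7.23e-06). Il25, the ligand gene of tuft cells, had 18, 47 and 11 counts after PBS and 7, 0, 0 and 3 after TNF (log2FC -3.17 ± 0.91, adjusted p = 0.00806). Most of its PBS counts came from replicate 2, and the call was lost without that library (-2.47, adjusted p = 0.0726), while leaving out TNF replicate 1 gave -4.36. Il25 was not tested with a filter of 1 CPM.

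The labelled cell type was checked against markers. The summed level of 9 PC markers ran from 168000 to 273000 CPM after PBS and from 161000 to 290000 CPM after TNF. Most of it came from Lyz1, Defa24 and Itln1, with means of 96500, 71500 and 29900 CPM after PBS. Of the 9, 2 were higher (Mmp7 and Pla2g2a) and 2 lower (Habp2 and Mptx2), beside 29.5% and 30.1% of all tested genes. Of the PBS libraries, replicate 1 was highest for all 9. Of 16 leukocyte markers, 5 had 0 counts, Cd3e and Tyrobp among them, and the sum ran from 47.5 to 62.2 CPM after PBS and from 28.2 to 39.3 CPM after TNF. Of 12 stromal and endothelial markers, Col1a2, Lum and Kdr had 0 counts, with sums of 4.22 to 4.45 CPM and 8.51 to 11.1 CPM. Of the 2 tested markers of that list, Vwf was higher (2.30 to 8.53 CPM in the mean) and Pdgfrb lower (1.80 to 0.521 CPM).

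Markers of tuft cells, enterocytes and stem cells were also examined, where 30.1% of all tested genes were lower after TNF. All 8 tuft cell markers, one of which is Il25, were present and lower as DEGs. Their sum was 1620, 2400 and 1450 CPM after PBS and 714, 428, 648 and 283 CPM after TNF. PBS replicate 2 was the highest library for the tuft cell sum and also for Il1r1, Il17re, Il17rb and Il25. Of the PBS libraries it was also the highest for 9 of 10 enterocyte markers, such as Sis with 4.70, 15.2 and 4.98 CPM and Apoa1 with 1.11, 22.1 and 2.39 CPM. The exception was Anpep, which made up most of the enterocyte sum with 448, 367 and 309 CPM. Of the TNF libraries, replicate 1 was highest for the tuft cell sum and for Il1r1, Il17rb and Il25, whereas Il17re had 0 counts there. Of 10 enterocyte markers, 6 were tested and 5 were lower, with sums of 355 to 511 CPM after PBS and 47.6 to 59.9 CPM after TNF. Apoa1 and Apoa4 passed the filter with no TNF library over it and Sis with 1, so a difference was built into their selection. The count of 5 supports nothing further. Of 8 stem cell markers, 7 were lower, with sums of 3540 to 4900 CPM and 2000 to 2750 CPM. The part of these cells in the values of Il1r1, Il17re and Il17rb was not tested.

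**Figure D5:**
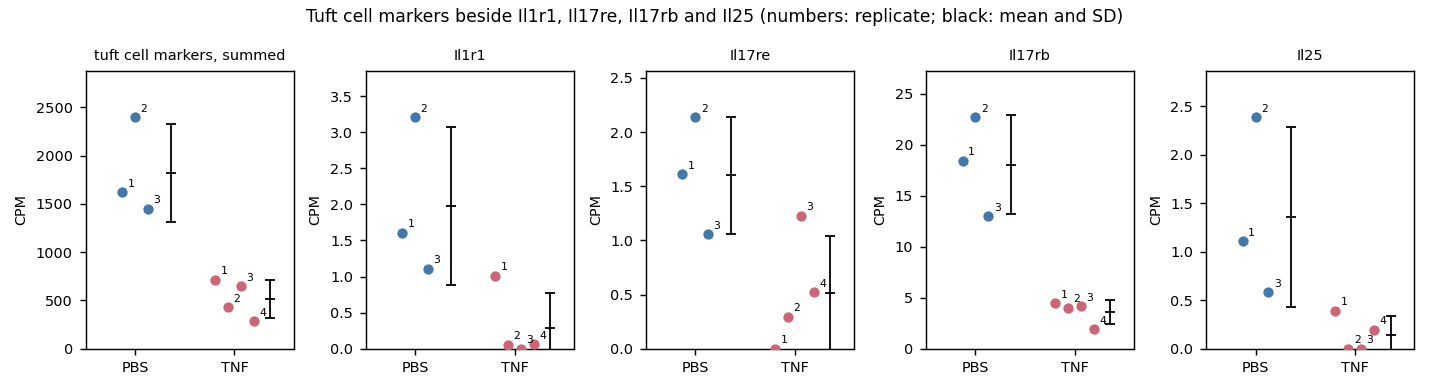
Summed CPM of 8 tuft cell markers and CPM of Il1r1, Il17re, Il17rb and Il25 in each library (vertical axes from 0), with replicate numbers and mean and SD in black. PBS replicate 2 is the highest library in every panel, and the tuft cell sum falls from at least 1450 CPM in the PBS libraries to at most 714 CPM in the TNF libraries.

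The genes with the pattern most like that of Il1rn, by Pearson correlation of log2(CPM + 0.5) over the 7 libraries, were Mettl25 (r = 0.9988), Ints14 (0.9977) and Isg20l2 (0.9967). For Il17c they were Lsm7 (0.9867), Htra2 (0.9855) and H2-M3 (0.9843). The libraries share their treatment, and 1382 tested genes reached at least 0.95 with Il1rn and 84 with Il17c, so these names describe rank only.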

How the data were processed

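PCs of 3 PBS and 4 TNF mice were profiled by bulk RNA-seq (Element AVITI, single-end). The authors deposited raw counts, as whole numbers per Ensembl identifier and library. The submitters' processing notes name FastQC, Trimmomatic 0.39, STAR 2.7.10a and DESeq2, and the builds mm10 and mm39. The roles of these tools, the annotation and the strand setting are not given in these notes or the labels. Library totals ran from 15511455 to 19193721 counts, and no library was a copy of another in its group (smallest chi-square over genes divided by its degrees of freedom, 16.4).

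Symbols and GRCm39 coordinates were taken from GENCODE M39, which held 98.8% of the identifiers. Counts were tested with edgeR 4.0.16 in R 4.3.3 (quasi-likelihood, robust, two-sided) after TMM scaling and filterByExpr, which kept genes with at least 0.551 CPM in at least 3 libraries, over all 7 libraries and without covariates. No batch is given in the labels. The script was checked on counts with known changes. Alternatives were DESeq2 size factors, library totals, TMM without alpha-defensins and Lyz1, no filter, at least 1 CPM in 3 libraries, DESeq2 1.42.0, voom of limma 3.58.1, a replicate block and each library left out. Count ratios were tested by exact permutation in scipy 1.17.1, with 1 in place of 0.5 added as an alternative. A doubled one-sided p was added as an alternative after the data were seen.

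All 10 members were named, and of each pathway list the 3 DEGs with the largest absolute log2 fold change at a mean of at least 1 CPM, with the ligands Il1a, Il1b, Il17a and Il17f. Other named genes were chosen after their values were seen. The members and lists were chosen with earlier results of these data known. Folds against a group with 0 counts use a floor of 3 counts over that group, and floors and intervals cover counting error only.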

Additional observations from a re-analysis of the deposited data

Results flagged for a closer look

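Within the 4 TNF libraries, a library that stood apart from the others, by Dixon's ratio, was found for 5 of 34 values examined, where chance gives about 1 in 20. Il1r1 had 1.01 CPM in TNF replicate 1, the highest of the group, where the others had at most 0.0654 CPM. Il17c had 0.28 CPM in the same library, the lowest of the group. Cxcl1 had 31 CPM there, the highest of the group. Il1rn had 6.95 CPM in TNF replicate 2, the lowest of the group, and Irak1 had 153 CPM in that library, the highest of the group. The 3 PBS libraries were not examined in this way.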

How the results depend on the processing

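Of the 24 genes named by rule, 19 kept their side of the threshold in every alternative that tested them, and none changed sign. Of 10 further genes named after their values were seen, which are not in this tally, Irak4 and Il25 lost their call in some settings. The number of members called lower, which was 1, was 2 with scaling by library totals only, with no filter on low counts and with limma-voom, and ran from 0 (without PBS replicate 2 or TNF replicate 4) to 2 (without TNF replicate 3) when single libraries were left out. The number called higher ran from 5 to 6 over all alternatives. Il17c was not tested with the filter of 1 CPM. The 4 ratios kept their direction in all alternatives. The smallest p the permutations allow is 0.0667 without a PBS library, 0.1 without a TNF library and 0.0571 with the doubled one-sided p, so of the alternatives only the addition of 1 to each count could have given a call, and it gave none. Replicate numbers are shared between the groups. The deviations of same-numbered libraries correlated at -0.33, -0.03 and -0.31, which shows no sign of pairing. With so few libraries these correlations cannot decide whether the numbers pair them. With the replicate number as a block, in which TNF replicate 4 has no partner, 7131 genes were DEGs in place of 8543, and 5 members were higher and 1 lower. Il17rc, Il17d and Irak4 lost their call with this block. At these depths, differences of Il17c, Il1r1 and Il17re rest on few counts.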
